A study of Homo sapiens with 30 samples.

Results

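Matrix metalloproteinases (MMPs) are zinc-dependent enzymes that cut extracellular matrix and cell surface proteins, and tissue inhibitors of metalloproteinases (TIMPs) bind and block them. The genes described here are 7 MMPs (MMP1, MMP7, MMP9, MMP10, MMP12, MMP14 and MMP19) and 3 TIMPs (TIMP1, TIMP2 and TIMP3), taken as every probe set that the platform annotation gives to 1 of these symbols alone. They are 10 of the 10050 genes tested, and 17 of the 19064 probe sets with 1 gene. All 17 probe sets passed the filter on low values, under which 3 or more arrays had to place it above their own 25th percentile. MMP14 and TIMP3 had 4 probe sets each, MMP19 had 2, and the other 7 genes had 1. Of several, the one with the highest mean over the arrays stands for the gene.

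The cells were THP-1, an established human monocytic leukaemia line, which had all been treated with 82 nM phorbol 12-myristate 13-acetate (PMA) for 24 h to become adherent and macrophage-like. They were then washed, scraped and plated again with multi-walled carbon nanotubes (MWCNT) at 10 or 100 µg/ml, with titanium dioxide nanobelts (TiO2-NB) at 10 or 100 µg/ml, or with no particles (control), and RNA was taken from the adherent cells 1 or 24 h later. This gave 10 groups of 3 arrays, which the labels call biological replicates. The comparisons ask how long carbon tubes and long mineral ribbons act on the same cells at either dose and either time. A single cell line was used, so p-values measure the spread between cultures of that line.

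Macrophages make MMPs as inactive precursors, most of which are secreted and then cut into active enzymes, while MMP14 stays in the cell membrane. MMP1 cuts fibrillar collagen, MMP7 (matrilysin) and MMP10 (stromelysin 2) have broad substrates, MMP9 cuts gelatin and basement membrane collagen, and MMP12 is the macrophage elastase. In many cell types PMA and inflammatory signals raise transcription of several secreted MMPs through AP-1 sites near their start. The arrays measured transcripts only, so neither secretion nor enzyme activity was measured.

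All values are log2 intensities, a difference of 1 is a 2-fold change, and a gene is called where its adjusted p is under 0.05 in limma, a linear model fitted to all 30 arrays. Values ran from 1.89 to 14.42 over all arrays, and the residual SD had a median of 0.128 over genes. In a bulk culture, fewer cells with a transcript and less transcript per cell cannot be told apart. Of 14 measured macrophage and monocyte markers, 13 lay above the middle of the array. CD68 and CD33 were not measured by a probe set of 1 gene, and MRC1 lay at the 22.13th percentile. Markers of promyelocytes and undifferentiated THP-1 cells were high too, with 5 of 6 above the middle of the array and 0 below its 25th percentile. Markers of epithelial cells, lymphocytes and neutrophils lay mostly below the middle of the array (0 of 7, 1 of 6 and 1 of 5 above it), as did those of fibroblasts (2 of 8) and endothelial cells (2 of 5).

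At 24 h, 1 array of each group lay apart from the other 2 on the first component of the residuals, which took 49.7% of their variance over 10040 genes other than the 10 described here. These were replicate 3 of the control and of both 10 µg/ml groups, and replicate 1 of both 100 µg/ml groups. The deviations of 3 arrays from their own mean sum to 0, so 1 array of a group lies opposite the others on any such component. That sum does not make the groups alike. Yet in all 5 groups the array apart scored 11.92 to 13.09 and the others -7.04 to -5.42. What the groups share here was not tested. Calls of the 10 genes at 24 h that were gained or lost without these 5 arrays are given beside the results, with the values of both fits. At 1 h the first component took 43.1%, with replicate 1 of 10 µg/ml TiO2-NB and replicate 2 of each other group apart. Those 1 h arrays were kept in every fit without the arrays that stand apart. In such a fit, differences between the times thus rest on arrays left out at 24 h only. Such a fit also drops the array of each 24 h group that lies furthest from the group mean on this component. For genes that follow the component, its SEs and p-values can therefore be too small.

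In control cells most of these genes were more abundant at 24 h than at 1 h after plating. Of the 10 genes, 7 were called higher at 24 h and none lower, among tested genes of which 20.8% were called higher and 16.1% lower. The median log2 difference was 0.95 for the 10 genes and 0.03 for all tested genes. Arrays without overlap are common here: of 10050 tested genes, 2548 lay wholly higher and 1974 wholly lower at 24 h. Time in culture, time since PMA and recovery from plating cannot be told apart in this comparison.

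MMP12 had the largest difference with time of the 10 genes. Its log2 levels were 9.28, 9.52 and 8.04 in the 24 h controls, against 4.69, 4.62 and 4.33 in the 1 h controls. The groups were far apart, and the lowest 24 h array of any treatment lay 1.81 above the highest 1 h array. The log2 fold change was 4.40 ± 0.33 (SE, n = 3 per group, adjusted p = 1.78e-10 by limma), or 21.17-fold. MMP12 lay above the 25th percentile on 19 of the 30 arrays, so its level at 1 h is at the low end of the scale, and a fold change from there depends on the background of the array.

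The collagenase MMP1 and the stromelysin MMP10 were also higher at 24 h. MMP1 had log2 levels of 11.53, 11.63 and 11.38 in the 24 h controls, against 10.10, 9.68 and 9.29 in the 1 h controls, a difference of 1.82 ± 0.22 (adjusted p = 5.17e-07 by limma). MMP10 had 6.71, 6.90 and 6.08 in the 24 h controls and 5.19, 4.32 and 4.01 in the 1 h controls, a difference of 2.05 ± 0.33 (adjusted p = 2.33e-05 by limma). Neither gene's control arrays overlapped between the times. MMP10 lay above the 25th percentile on 20 arrays, so its 1 h values have the same limit as those of MMP12.

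MMP9 and MMP19, which cuts basement membrane proteins, rose by smaller amounts. MMP9 had 13.73, 13.68 and 13.65 in the 24 h controls, against 12.69, 12.50 and 12.43 in the 1 h controls, and a difference of 1.15 ± 0.08 (adjusted p = 4.4e-11 by limma). Its 24 h levels are close to the highest value on any array. MMP19 differed by 1.21 ± 0.21 (adjusted p = 4.86e-05 by limma) on the probe set that stands for it, but by 0.23 ± 0.12 on its second probe set (adjusted p = 0.166), so its rise rests on 1 of its 2 probe sets.

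Among the inhibitors, TIMP1, which is secreted and binds proMMP9, was higher at 24 h and TIMP2 was not called. TIMP1 had 12.77, 12.65 and 12.56 in the 24 h controls, against 12.26, 12.23 and 12.16 in the 1 h controls, a difference of 0.45 ± 0.08 (adjusted p = 6.54e-05 by limma). TIMP3, which binds to the matrix, differed by 0.75 ± 0.28 (adjusted p = 0.0354 by limma), with 9.34, 9.53 and 9.50 in the 24 h controls and 8.74, 8.20 and 9.18 in the 1 h controls. This TIMP3 call rests on 1 of its 4 probe sets, the others having differences of 0.66, 0.38 and 0.20 (adjusted p = 0.0518, 0.115 and 0.592), and it was lost without any 1 of 5 of its 6 arrays (adjusted p of up to 0.208) and without the 5 arrays that stand apart (0.73 ± 0.35, adjusted p = 0.118).

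MMP7, MMP14 and TIMP2 had no called difference with time. TIMP2, which takes part in the activation of MMP2 by MMP14, differed by -0.24 ± 0.11 (adjusted p = 0.0904 by limma), and by -0.33 ± 0.08 (adjusted p = 0.00404) without the arrays that stand apart, a fit that called 35.1% of tested genes, and -0.30 ± 0.11 (adjusted p = 0.0376) after cyclic loess. MMP14 differed by -0.10 ± 0.13 and its 4 probe sets gave values between -0.10 and 0.10. Markers of promyelocytes and undifferentiated THP-1 cells moved with time as well: the mean log2 level of that list was 7.57 to 8.28 over the 24 h control arrays, against 9.61 to 10.03 over the 1 h control arrays. The macrophage list moved the other way, with 9.83 to 9.94 at 24 h and 9.23 to 9.37 at 1 h. The part of either in the MMP and TIMP differences was not tested.

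**Figure D1:**
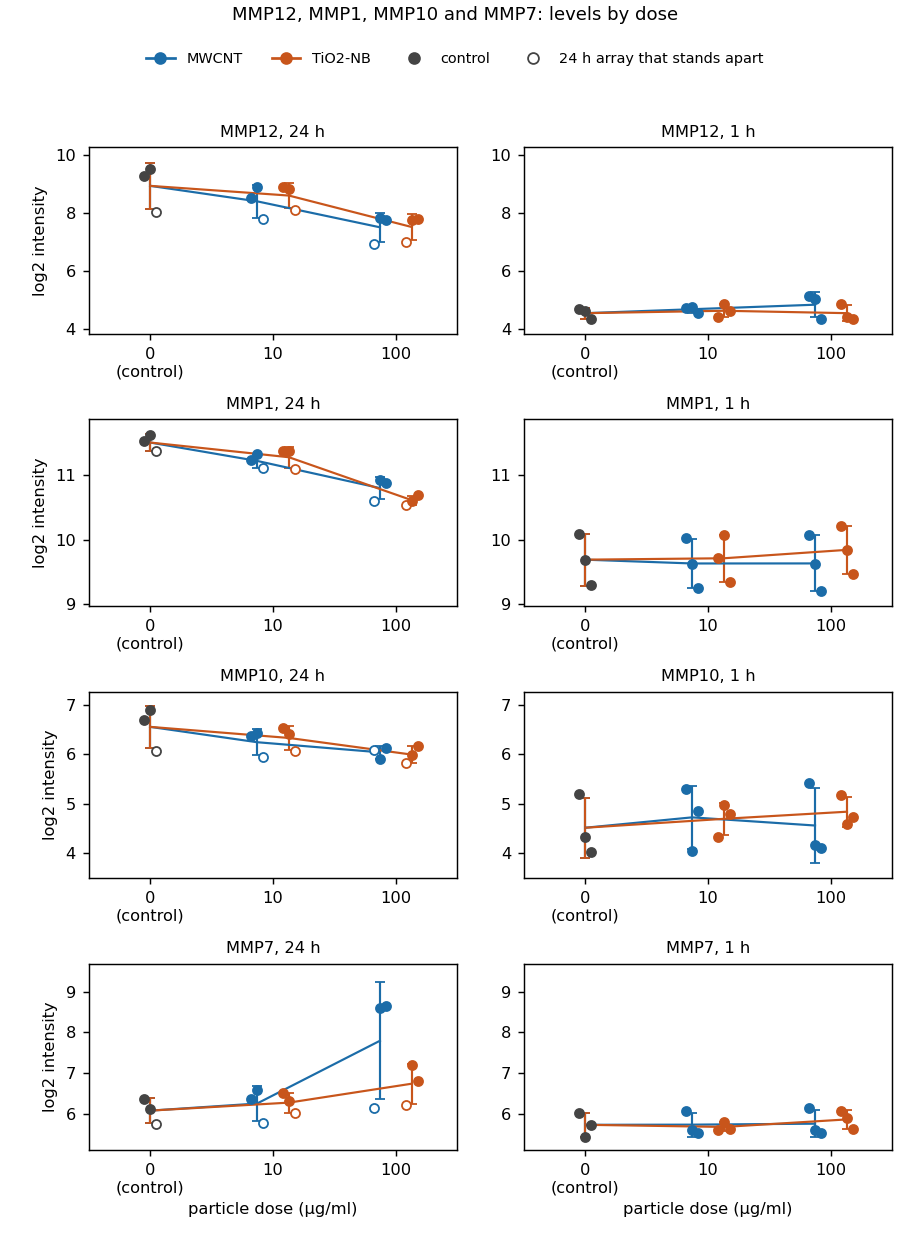
Log2 intensity (vertical axis) of MMP12, MMP1, MMP10 and MMP7 against particle dose in µg/ml (horizontal axis), at 24 h (left) and 1 h (right). Points are arrays, lines join group means, bars are SDs of 3 arrays, the control is shared by both materials, and open points are the 24 h arrays that stand apart. At 24 h the means of MMP12 and MMP1 are lower at each higher dose of either material, and MMP7 is at 8.61 and 8.64 in 2 of the 3 arrays with 100 µg/ml MWCNT.

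After 24 h with 100 µg/ml MWCNT, MMP7 transcripts were higher and MMP12 and MMP1 transcripts were lower than in the 24 h control. These 3 were called, 1 higher and 2 lower, where 8.99% of tested genes were called higher and 4.04% lower. Centring the arrays on their medians put the share of higher genes among those called at 49.82% in place of 68.98%. The direction of the 3 genes was the same under that scaling. The median log2 fold change was -0.20 for the 10 genes and -0.01 for all tested genes. Of 10050 tested genes, 1717 had all MWCNT arrays above all control arrays and 1298 had them all below, so arrays without overlap are common.

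MMP12, the macrophage elastase, was lower with both materials. Its log2 levels were 6.94, 7.85 and 7.75 with MWCNT and 6.996, 7.78 and 7.80 with TiO2-NB at 100 µg/ml, against 9.28, 9.52 and 8.04 in the 24 h control. Every exposed array lay below every control array, though the lowest control value, 8.04, was close to the highest exposed one. MMP12 fell by 1.43 ± 0.33 with MWCNT (adjusted p = 0.00446 by limma), a 2.70-fold decrease, and by 1.42 ± 0.33 with TiO2-NB (adjusted p = 0.00284), a 2.69-fold decrease. The control replicate at 8.04 and the exposed replicates at 6.94 and 6.996 are arrays that stand apart, and without all 5 such arrays the differences were -1.60 ± 0.21 (adjusted p = 4.6e-05) and -1.61 ± 0.21 (adjusted p = 3.11e-05). The array that stands apart was the lowest of the 3 for MMP12 in all 5 groups at 24 h. With only the 6 arrays of the MWCNT comparison in the fit, its adjusted p was 0.0703.

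The decrease of MMP12 left it well above its level at 1 h. Its level at 24 h in either 100 µg/ml group lay above that in each 1 h group, with no overlap of arrays. At 10 µg/ml MMP12 had 8.54, 8.91 and 7.79 with MWCNT and 8.90, 8.82 and 8.12 with TiO2-NB, and overlapped with the control in both. Those differences were -0.53 ± 0.33 and -0.34 ± 0.33 and were not called. From 10 to 100 µg/ml MMP12 fell by 1.09 ± 0.33 with TiO2-NB (adjusted p = 0.0301 by limma), a call lost without any 1 of 3 of its 6 arrays (adjusted p of up to 0.159), and the same difference with MWCNT was -0.90 ± 0.33 (adjusted p = 0.139). Without the arrays that stand apart these dose differences were -1.07 ± 0.21 with TiO2-NB (adjusted p = 0.00274) and -0.92 ± 0.21 with MWCNT (adjusted p = 0.0153), both called, among tested genes of which 11.5% and 4.49% were called in those fits.

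MMP1, the interstitial collagenase, also had lower levels with both materials. At 100 µg/ml it had 10.60, 10.92 and 10.88 with MWCNT and 10.54, 10.61 and 10.69 with TiO2-NB, against 11.53, 11.63 and 11.38 in the control. The exposed arrays lay below the control arrays with no overlap. MMP1 fell by 0.90 ± 0.22 with TiO2-NB (adjusted p = 0.00475 by limma), a 1.86-fold decrease, and by 0.71 ± 0.22 with MWCNT (adjusted p = 0.0355), a 1.63-fold decrease. The call with TiO2-NB held without any 1 of the 6 arrays, and without the 5 arrays that stand apart (-0.93 ± 0.29, adjusted p = 0.0341). The call with MWCNT was lost without any 1 of 5 of its 6 arrays, with adjusted p values of up to 0.139, and without the 5 arrays that stand apart (-0.67 ± 0.29, adjusted p = 0.163).

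The 10 µg/ml groups gave MMP1 levels between those of the control and the high dose. These were 11.23, 11.33 and 11.11 with MWCNT and 11.38, 11.37 and 11.09 with TiO2-NB. Their differences from the control, -0.29 ± 0.22 and -0.23 ± 0.22, were not called. From 10 to 100 µg/ml TiO2-NB, MMP1 fell by 0.67 ± 0.22 (adjusted p = 0.0483 by limma), a call that was lost without any 1 of its 6 arrays (highest adjusted p = 0.142) and without the arrays that stand apart (-0.73 ± 0.29, adjusted p = 0.131).

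MMP7, matrilysin, was the 1 gene of the 10 called higher with MWCNT at 100 µg/ml. Its levels were 6.14, 8.61 and 8.64 with MWCNT, against 6.37, 6.14 and 5.76 in the control. The groups overlap, because replicate 1 of the exposed cells was at the level of the controls while the other 2 were over 2 log2 units above each of them. The log2 fold change was 1.71 ± 0.41 (adjusted p = 0.00574 by limma), or 3.26-fold. Replicate 1 of the MWCNT group stands apart over other genes too. Without the 5 arrays that stand apart the difference was 2.37 ± 0.22 (adjusted p = 7.05e-07), and between the arrays that stand apart in the MWCNT and control groups alone it was 0.38. Without MWCNT replicate 2 or replicate 3 the call was lost (lowest value 1.29, highest adjusted p = 0.06), so its size turns on which arrays are kept. It was also lost with only the 6 arrays of this comparison in the limma fit (adjusted p = 0.146). The dose comparison gave MMP7 1.53 ± 0.41 higher at 100 than at 10 µg/ml MWCNT (adjusted p = 0.0289 by limma), where 3.1% of tested genes were called higher and 1.56% lower, and this call was lost without any 1 of 4 of its 6 arrays (adjusted p of up to 0.209). Without the arrays that stand apart that difference was 2.13 ± 0.22 (adjusted p = 8.95e-06). With only the 6 arrays of the dose comparison in the limma fit, the adjusted p was 0.26.

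With TiO2-NB, MMP7 had 6.23, 7.20 and 6.81 at 100 µg/ml, which overlaps with the control at 6.37, 6.14 and 5.76. The difference of 0.66 ± 0.41 (adjusted p = 0.279 by limma) was not called, and without the arrays that stand apart it was 0.75 ± 0.22 (adjusted p = 0.0216). At 10 µg/ml its arrays spanned 5.80 to 6.60 with MWCNT and 6.03 to 6.51 with TiO2-NB, both across the control range.

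After 24 h with 100 µg/ml TiO2-NB, 4 of the 10 genes were called. MMP12, MMP1 and TIMP1 were lower and MMP9 was higher, where 10.9% of tested genes were called higher and 11.1% lower. The median log2 fold change was -0.02 for the 10 genes and 0.01 for all tested genes. Of 10050 tested genes, 1664 had all TiO2-NB arrays above all control arrays and 1683 had them all below.

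MMP9, a gelatinase, had 13.87, 13.93 and 13.93 with 100 µg/ml TiO2-NB, against 13.73, 13.68 and 13.65 in the control. Its exposed arrays lay above the control arrays by a narrow margin. The difference was 0.22 ± 0.08 (adjusted p = 0.0464 by limma), or 1.17-fold, near the top of the scale. The call was lost without any 1 of the 6 arrays (adjusted p of up to 0.12) and without the 5 arrays that stand apart (0.23 ± 0.10, adjusted p = 0.148). With MWCNT at this dose MMP9 had 13.65, 13.76 and 13.77, and a difference of 0.04 ± 0.08.

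TIMP1 had 12.24, 12.53 and 12.52 with 100 µg/ml TiO2-NB, against 12.77, 12.65 and 12.56 in the control. The exposed arrays lay just below the control arrays. TIMP1 fell by 0.23 ± 0.08 (adjusted p = 0.0351 by limma), and the call was lost without any 1 of 3 of the 6 arrays (control replicate 1 or 2, or exposed replicate 1, where the value was as small as -0.14). Median centring also lost it, and without the arrays that stand apart it was -0.19 ± 0.06 (adjusted p = 0.0412). Under MWCNT its levels were 12.37, 12.57 and 12.55, and the difference of -0.16 ± 0.08 was not called (adjusted p = 0.186). Macrophage markers were also lower with TiO2-NB at this dose, with a list mean of 9.54 to 9.63 over the exposed arrays, against 9.83 to 9.94 over the control arrays. Their part in these differences was not tested.

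The other 5 genes were not called in the fit of all arrays at 24 h with either material at 100 µg/ml. TIMP2 had 8.84, 8.35 and 8.43 with MWCNT, against 8.79, 8.74 and 9.02 in the control. Here replicate 1 again lay with the controls and the other 2 below them, as seen for MMP7 in the other direction. The difference was -0.31 ± 0.11 (adjusted p = 0.0682 by limma), and -0.38 ± 0.09 (adjusted p = 0.00861) without the arrays that stand apart. TIMP2 was also called after median centring (-0.36 ± 0.11, adjusted p = 0.0313) and after cyclic loess (-0.34 ± 0.11, adjusted p = 0.0406). MMP10 differed by -0.52 ± 0.33 with MWCNT and by -0.57 ± 0.33 with TiO2-NB, from means of 6.04 and 5.998 against 6.56 in the control, with adjusted p values of 0.346 and 0.244. Without the arrays that stand apart these were -0.78 ± 0.42 and -0.72 ± 0.42, again not called.

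TIMP3 had higher means in both high dose groups without a call. Its levels were 9.79, 9.75 and 9.68 with MWCNT and 10.01, 9.86 and 9.92 with TiO2-NB, against 9.34, 9.53 and 9.50 in the control. The arrays do not overlap on this probe set. All 4 probe sets of TIMP3 had positive differences with TiO2-NB, from 0.34 to 0.54, while with MWCNT the other 3 gave 0.23, 0.04 and 0.06, and on the last 2 of these the MWCNT arrays overlapped with the control. The limma fit gave 0.28 ± 0.28 and 0.47 ± 0.28 (adjusted p = 0.575 and 0.245). At 1 h the TIMP3 arrays spread from 8.03 to 9.30, far wider than at 24 h, and the fit shares 1 spread over both times. With only the 6 arrays of the TiO2-NB comparison the same difference had an SE of 0.09 and an adjusted p of 0.0115.

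MMP14 and MMP19 were not called with either material. MMP14 differed by -0.23 ± 0.13 with MWCNT (adjusted p = 0.28) and by 0.09 ± 0.13 with TiO2-NB (adjusted p = 0.689). MMP19 had 9.90, 10.18 and 10.25 with MWCNT and 9.96, 10.57 and 10.71 with TiO2-NB, against 10.30, 10.25 and 9.75 in the control, with differences of 0.01 ± 0.21 and 0.32 ± 0.21.

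**Figure D2:**
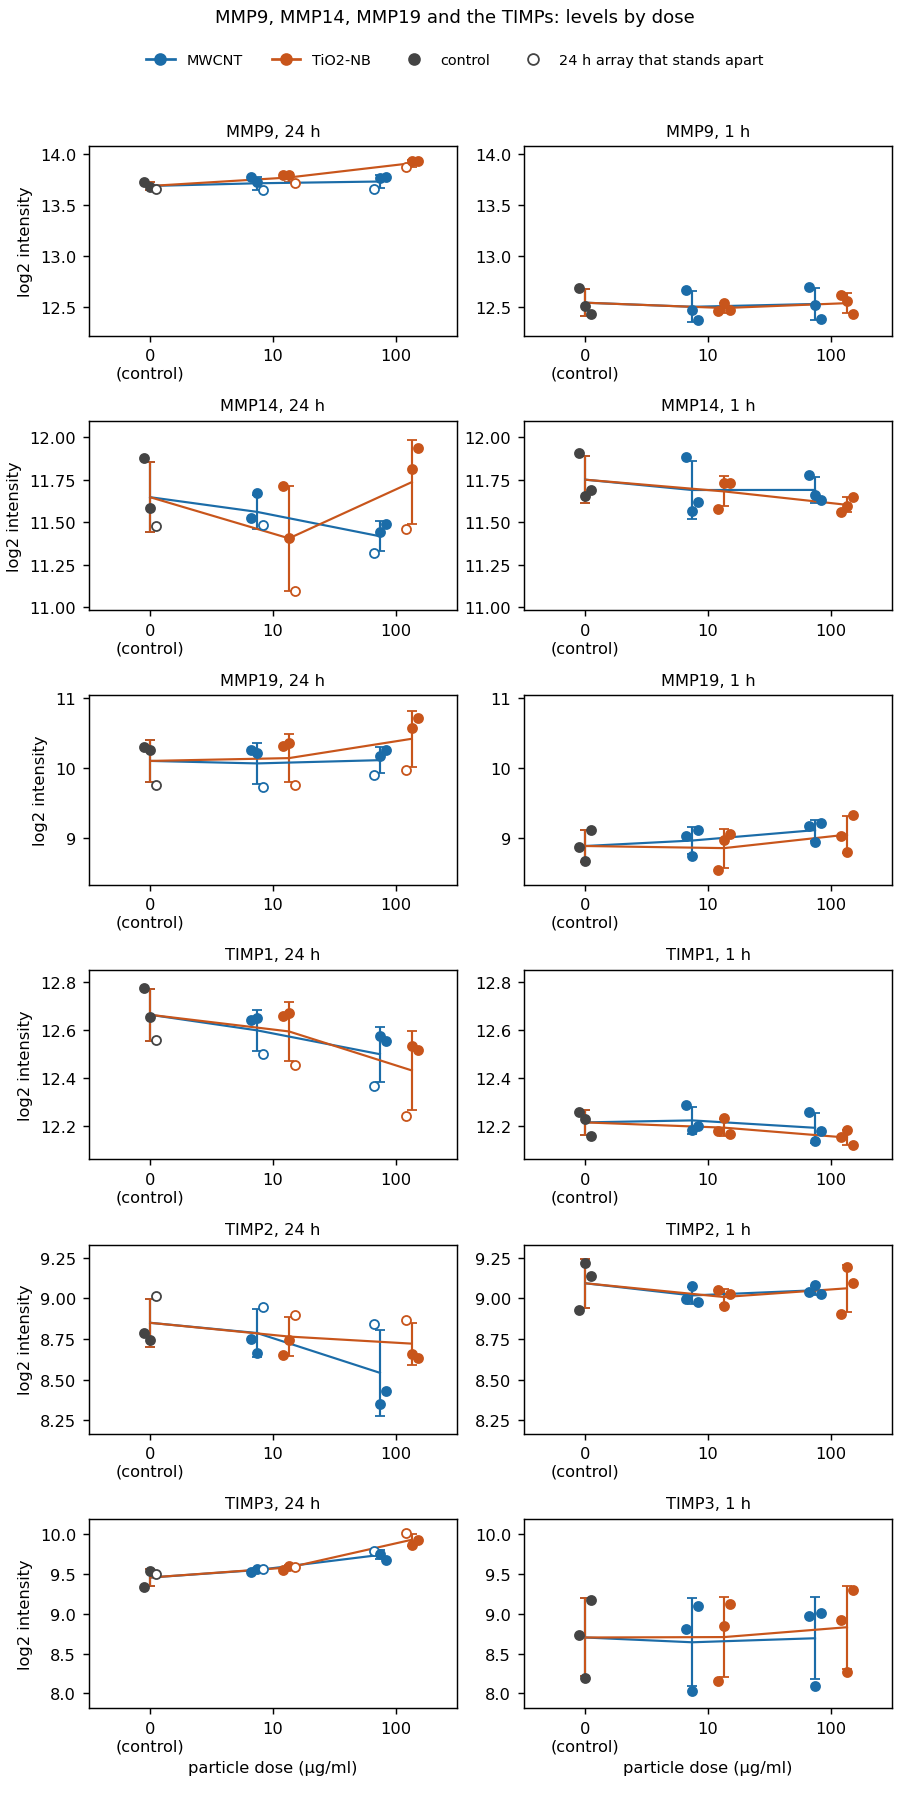
Log2 intensity (vertical axis) of MMP9, MMP14, MMP19, TIMP1, TIMP2 and TIMP3 against particle dose in µg/ml (horizontal axis), at 24 h (left) and 1 h (right), with each gene's own vertical range. Points are arrays, lines join group means, bars are SDs of 3 arrays, and open points are the 24 h arrays that stand apart. MMP9 and TIMP1 move by about 0.2 with the high dose of TiO2-NB, and TIMP3 spreads widely at 1 h.

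**Figure D3:**
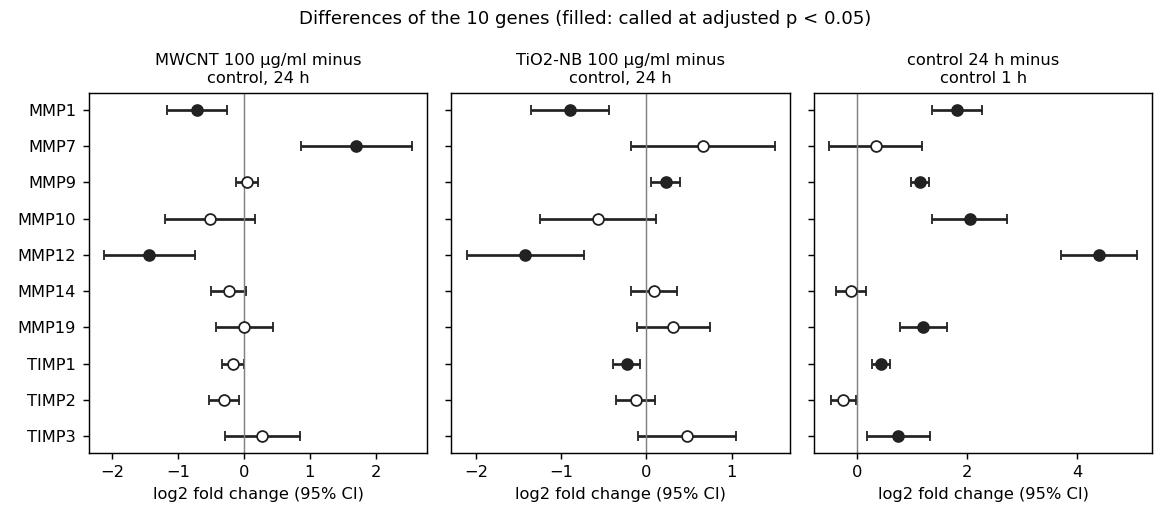
Log2 fold changes (horizontal axis) of the 10 genes with 95% confidence intervals, for 100 µg/ml MWCNT and 100 µg/ml TiO2-NB against the control at 24 h, and for the 24 h control against the 1 h control. Filled points were called; MMP12 and MMP1 lie below 0 under both materials and above 0 with time.

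At 10 µg/ml none of the 10 genes was called at 24 h against the control, by limma, and at an unadjusted p under 0.05 the number was 0 with each material. Of all tested genes 0% were called with MWCNT and 0.0199% with TiO2-NB at that dose. From 10 to 100 µg/ml TiO2-NB at 24 h, 7.38% of tested genes were called higher and 6.1% lower, and MMP12 and MMP1 were the genes of the 10 among them.

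After 1 h no gene of the 10 was called with either material at either dose, and the number at an unadjusted p under 0.05 was 0 in each of the 4 comparisons. The differences from the control lay between -0.15 (MMP14) and 0.33 (MMP10), both with 100 µg/ml TiO2-NB. Of all tested genes 1.15% were called with 100 µg/ml TiO2-NB and 0% in the other 3 comparisons. The dose comparisons at 1 h called 0% of tested genes with MWCNT and 0.0796% with TiO2-NB, and none of the 10, with 0 at an unadjusted p under 0.05. Centring the arrays on their medians moved the share of higher genes among those called with 100 µg/ml TiO2-NB at 1 h to 2.02%, in place of 18.97%. MMP1 at 1 h had its replicates in the same order in 4 of the 5 groups, with 10.02, 9.62 and 9.25 with 10 µg/ml MWCNT, 10.07, 9.63 and 9.20 with 100 µg/ml MWCNT, 10.21, 9.85 and 9.47 with 100 µg/ml TiO2-NB, and 10.10, 9.68 and 9.29 in the control. With 10 µg/ml TiO2-NB the values were 9.72, 10.07 and 9.34, so replicates 1 and 2 stood in the opposite order there. In that group replicate 1, and in the other 4 groups replicate 2, was the array that stood apart at 1 h. With 100 µg/ml TiO2-NB each MMP1 value lay above the control value of the same replicate number. With either dose of MWCNT each lay below it. The main fit does not pair arrays, and a fit with the replicate numbers as a block gave no call either. Pairing of arrays in another way was not tested.

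The difference between 24 and 1 h in the response to a particle was tested as an interaction. With 100 µg/ml MWCNT the interaction of MMP12, its response at 24 h minus that at 1 h, was -1.73 ± 0.47 (adjusted p = 0.0387 by limma). MMP12 was the 1 gene of the 10 called there in the fit of all arrays, among tested genes of which 2.64% were called higher and 1.07% lower. For MMP7 the same interaction was 1.68 ± 0.58 (adjusted p = 0.118), and it was called without MWCNT replicate 1 of the 24 h group (2.51 ± 0.35, adjusted p = 0.000147) and without the 5 arrays that stand apart (2.34 ± 0.28, adjusted p = 4.36e-05). The interaction of MMP12 without those 5 arrays was -1.89 ± 0.28 (adjusted p = 0.000334), where 5.45% of tested genes were called. With 100 µg/ml TiO2-NB the interaction was -1.43 ± 0.47 for MMP12 (adjusted p = 0.0394) and -1.05 ± 0.32 for MMP1 (adjusted p = 0.0249), where 7.49% were called higher and 8.85% lower. After median centring 69.07% of the genes called in that comparison were higher in place of 45.86%, and MMP12 was no longer called (-1.34, adjusted p = 0.0505). The interaction with TiO2-NB was also lost for MMP12 without any 1 of 8 of its 12 arrays (adjusted p of up to 0.125), and for MMP1 without any 1 of 3 of them (adjusted p of up to 0.0722) or without the arrays that stand apart (-1.08 ± 0.38, adjusted p = 0.0649). Without those arrays MMP12 was at -1.61 ± 0.28 (adjusted p = 0.000839), where 13.5% of tested genes were called. The MMP12 call in the MWCNT comparison was lost without any 1 of 9 of its 12 arrays (adjusted p of up to 0.123). In the 1 h control MMP12 had a mean of 4.54, at the 20.87th percentile of the array, so a fall at 1 h could hardly be seen. For MMP12 the interaction therefore cannot tell a response absent at 1 h from one hidden at the low end of the scale. At 10 µg/ml the interaction called 0% of tested genes with either material, and 0 of the 10 at an unadjusted p under 0.05.

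Set against each other at the same dose and time, the materials gave no call among the 10 genes in the fit of all arrays. At 100 µg/ml and 24 h 24.9% of all tested genes were called, and at an unadjusted p under 0.05 the count was 3 of the 10 there and 0 in the other 3 comparisons. Of the genes called there 56.33% were higher with MWCNT, and 39.04% after median centring. At 10 µg/ml and 24 h 0.00995% of tested genes were called, at 100 µg/ml and 1 h 1.42%, and at 10 µg/ml and 1 h 0%. For MMP12 the difference at 100 µg/ml and 24 h (MWCNT minus TiO2-NB) was -0.01, with a 95% interval from -0.70 to 0.68, and for MMP1 it was 0.19, from -0.27 to 0.65. These intervals do not show that the materials act alike.

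MMP7 had the largest difference between materials among the 10, at 6.14, 8.61 and 8.64 with MWCNT, against 6.23, 7.20 and 6.81 with TiO2-NB. The difference was 1.05 ± 0.41 (adjusted p = 0.0631 by limma), and without the arrays that stand apart it was 1.62 ± 0.22 (adjusted p = 4.75e-05). MMP14, the membrane-bound activator, was at -0.32 ± 0.13 (adjusted p = 0.0747), and at -0.41 ± 0.12 (adjusted p = 0.0225) without those arrays. The other 3 probe sets of MMP14 gave -0.27, -0.23 and -0.13 in the fit of all arrays (adjusted p = 0.19, 0.223 and 0.478). MMP9 was at -0.18 ± 0.08 (adjusted p = 0.102), with arrays that do not overlap. That holds for 2101 genes higher and 2003 lower of the 10050 tested. After median centring MMP14 and MMP9 were called lower with MWCNT (-0.38 and -0.24, adjusted p = 0.0367 each). Without the arrays that stand apart, the fit called 12.1% of all tested genes for MWCNT and 17.2% for TiO2-NB against the control at 100 µg/ml and 24 h, and 20.1% between the materials.

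MMP7, MMP10, MMP1 and MMP12 belong to a run of 9 neighbouring MMP genes on chromosome 11, of which 6 were tested. In genome order these are MMP7, MMP8, MMP10, MMP1, MMP3 and MMP12. With 100 µg/ml MWCNT at 24 h the log2 fold changes along this order were 1.71, 1.41, -0.52, -0.71, -0.16 and -1.43, so MMP7 and MMP8, the neutrophil collagenase, were higher, while MMP1 and MMP12 were lower. With TiO2-NB the values were 0.66, -0.02, -0.57, -0.90, 0.51 and -1.42. MMP8 was called with MWCNT (1.41 ± 0.31, adjusted p = 0.00276 by limma) and between the materials (1.43 ± 0.31, adjusted p = 0.00175). Neutrophil markers did not move with it: 4 of 5 lay below the 25th percentile, and their mean level was 4.18 to 4.36 over the MWCNT arrays, against 4.23 to 4.36 over the control arrays. MMP3 (stromelysin 1) differed between the materials (-0.67 ± 0.19, adjusted p = 0.0135, lost without either of 2 arrays) but from the control by 0.51 ± 0.19 with TiO2-NB (adjusted p = 0.0585).

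**Figure D4:**
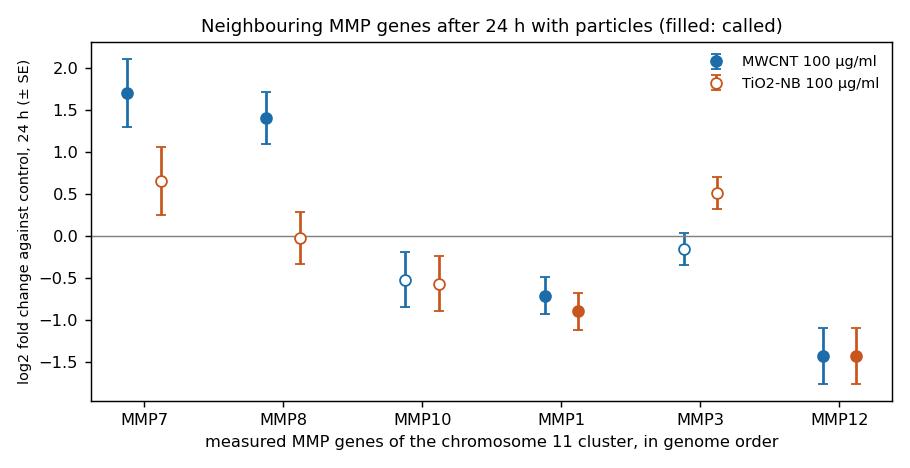
Log2 fold change against the control at 24 h (vertical axis, bars are SEs) for the 6 tested MMP genes of the chromosome 11 cluster, in genome order (horizontal axis), with 100 µg/ml MWCNT or TiO2-NB. Filled points were called; MMP7 and MMP8 lie above 0 with MWCNT, and MMP1 and MMP12 lie below 0 with both materials.

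Promoter sequences of MMP7 and MMP10 show what these 2 genes of the chromosome 11 run share near their starts. MMP10 was not called with MWCNT (-0.52 ± 0.33, adjusted p = 0.346 by limma), so an opposite response of the 2 genes is not shown. The RefSeq table of 300-base windows, which run from 250 bases before to 50 after a gene's start, held 5 of the 10 genes. MMP1 and MMP12 of the same run were not among them, and MMP3 and MMP8 were not searched. The letters TGANTCA, the core of an AP-1 site, were searched on both strands, on which they read the same, together with TATAAA on both strands and an NF-kappaB consensus. MMP7 and MMP10 are the only 2 of these 5 genes with either TGANTCA or TATAAA, and MMP14, TIMP1 and TIMP3 have neither. Both genes carry TGANTCA at 67 bases upstream of the start and TATAAA at 30 (MMP7) and 31 (MMP10) bases upstream. TGANTCA occurs in 7.71% of the 35116 windows of the same length, TATAAA in 11.5% and both in 1.31%. The NF-kappaB consensus occurs in 5.91% and in none of the 5, and these letters say nothing of what binds there. The 250 upstream bases are printed 5′ to 3′ with both motifs in capitals (GRCh38.p14, minus strand, chr11:102530748-102530997 for MMP7 and chr11:102780629-102780878 for MMP10).
MMP7: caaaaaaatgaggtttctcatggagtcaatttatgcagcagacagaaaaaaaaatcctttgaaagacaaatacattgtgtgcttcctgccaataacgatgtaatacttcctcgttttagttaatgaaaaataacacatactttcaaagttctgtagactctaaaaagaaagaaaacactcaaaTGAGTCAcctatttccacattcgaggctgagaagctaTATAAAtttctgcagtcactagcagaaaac
MMP10: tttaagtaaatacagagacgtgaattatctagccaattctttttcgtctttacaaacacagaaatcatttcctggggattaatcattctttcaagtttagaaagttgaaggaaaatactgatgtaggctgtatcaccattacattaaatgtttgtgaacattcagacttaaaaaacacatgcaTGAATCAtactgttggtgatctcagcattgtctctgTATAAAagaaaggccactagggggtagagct

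The other MMPs and TIMP4 gave 11 tested genes of 17. With 100 µg/ml MWCNT at 24 h 2 were called higher and 3 lower, and with TiO2-NB 1 was higher and 1 lower. Of all tested genes 8.99% were called higher and 4.04% lower with MWCNT, and 10.9% and 11.1% with TiO2-NB, so the TiO2-NB counts are near those shares. MMP2, a gelatinase that MMP14 and TIMP2 help to activate, fell by 0.78 ± 0.12 with MWCNT (adjusted p = 6.69e-05 by limma) and by 0.39 ± 0.12 with TiO2-NB (adjusted p = 0.0178), a call that was lost without the arrays that stand apart. TIMP4, a further inhibitor, rose by 0.51 ± 0.11 with MWCNT (adjusted p = 0.00307) and by 1.00 ± 0.11 with TiO2-NB (adjusted p = 6.08e-07), and the materials differed (-0.49 ± 0.11, adjusted p = 0.00289). MMP17, a membrane-anchored enzyme, fell by 0.42 ± 0.11 with MWCNT, and MMP16, named after its values were seen as the last of the 5, by 0.27 ± 0.09 (adjusted p = 0.0494), a call that 9 other settings did not give. The median log2 fold change of the list was -0.13 with MWCNT and -0.02 with TiO2-NB, beside -0.01 and 0.01 over all genes.

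Genes that activate or restrain MMPs gave 18 tested genes of 21. With MWCNT 3 rose and none fell, where 8.99% of all tested genes were called higher and 4.04% lower. With TiO2-NB 2 rose and 1 fell, where these shares were 10.9% and 11.1%. The 3 of 18 that rose with MWCNT lie above their share, and the other counts are near or below theirs. RECK, a membrane-anchored MMP inhibitor, fell by 0.82 ± 0.10 with TiO2-NB (adjusted p = 1.37e-06 by limma) and was 0.60 ± 0.10 higher with MWCNT than with TiO2-NB, although the mean of its probe sets did not give the second call (adjusted p = 0.218). CD44, a hyaluronan receptor that can hold MMP9 at the cell surface, rose by 0.42 ± 0.10 with MWCNT and by 0.62 ± 0.10 with TiO2-NB (adjusted p = 0.00435 and 4.39e-05). SERPINA1 (0.52 ± 0.13), an elastase inhibitor, and TFPI2 (1.62 ± 0.54), a protease inhibitor of the matrix, rose with MWCNT, and SDC4 (0.64 ± 0.14), a cell surface proteoglycan, rose with TiO2-NB. Of these the TFPI2 and SERPINA1 calls were lost without the arrays that stand apart (adjusted p = 0.105 and 0.0718), and the TFPI2 call held without only 1 of its 6 arrays. The median log2 fold change of the list was -0.15 with MWCNT and -0.02 with TiO2-NB.

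The ADAM and ADAMTS proteases and the matrix substrates had few calls with particles, beside the shares of all tested genes given for the lists before. Of 14 tested ADAM and ADAMTS genes none was called with MWCNT, and with TiO2-NB ADAMDEC1 rose by 0.35 ± 0.08 and ADAM10, a sheddase, fell by 0.38 ± 0.07 (adjusted p = 0.000289). Of 14 tested matrix and cell surface substrates none was called with MWCNT, while with TiO2-NB VCAN (versican) fell by 0.70 ± 0.24 (adjusted p = 0.0417), a call lost without any 1 of 4 of its 6 arrays, and COL1A2, a chain of type I collagen, rose by 0.34 ± 0.12 (adjusted p = 0.0494), a call that 12 other settings did not give. The median log2 fold changes were -0.10 and -0.03 for the proteases with MWCNT and TiO2-NB, and close to 0 and -0.10 for the substrates. With time in control cells, 3 genes of the other MMPs and TIMP4 were called higher and 0 lower, 4 and 4 of the proteases, 8 and 7 of the genes that activate or restrain MMPs, and 7 and 1 of the substrates, where 20.8% of all tested genes were called higher and 16.1% lower.

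The 10 genes did not share one pattern over the groups. In the order of group means, MMP1 at 24 h ran from the control down through both 10 µg/ml groups to both 100 µg/ml groups, all above the 1 h groups, and 7 of its 9 neighbours in that order overlapped. For MMP12 8 of 9 neighbours overlapped, with a gap between the times only. For MMP7, MMP14, TIMP1 and TIMP2 all 9 neighbours overlapped. Over the 15 arrays at 24 h, Pearson's r was 0.91 between MMP1 and MMP12 and 0.90 between MMP10 and MMP12. It was -0.93 between MMP7 and TIMP2 and -0.90 between MMP1 and TIMP3. These r values are a description in which the points share arrays and groups, and they include the arrays that stand apart.

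The genes whose group means were most like those of MMP12 over the 10 groups were MARCKSL1 (r = 0.996), PPFIBP1 and NCKIPSD (r = 0.996 each), and over the 30 arrays r was 0.92 to 0.96. For MMP1 these were CRYL1, TYROBP and GLIPR1 (r = 0.999, 0.998 and 0.997 over 10 means). For MMP7 they were SPINK1, DAZL and ATP5F1B (0.984, 0.984 and 0.979), with r = 0.71, 0.75 and 0.63 over the 30 arrays. All were picked for the highest r of all tested genes. The means of MMP12 and MMP1 are split by time, and 3708 of 10050 tested genes were called between the control times. Their r values thus do not show a likeness in the response to particles.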

How the data were processed

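RNA of 30 THP-1 cultures was measured on Affymetrix arrays in 10 groups of 3 by the labels. The authors deposited log2 intensities per probe set, and the submitters' processing notes name RMA without a version. These values were used unchanged. Genes come from the platform annotation, which gives 19064 probe sets 1 gene, 1043 several and 2108 none, beside 62 control features. Of the first kind 15309 passed the filter on low values, with 3 or more arrays placing them above their own 25th percentile, and stand for 10050 genes. Precision is limited by how many arrays there are.

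The 10 group means were estimated together from all 30 arrays by limma 3.58.1 (R 4.3.3), leaving 20 residual degrees of freedom. Two-sided moderated p-values were adjusted by Benjamini-Hochberg over all genes within each of 21 comparisons. The method was tested on simulated data, with noise drawn separately for each gene and array. It was not tested with a spread shared between genes, such as the first components of the residuals. The 10 genes and the lists were chosen with earlier results of these data known. All 10 are named, with up to 4 called genes of each list and comparison with control and the 3 genes of most like pattern, MMP16 and the genes named between the materials being chosen after their values were seen. Alternatives changed the scaling (median centring, cyclic loess), the filter, the probe set rule, the arrays in the fit, the prior variance and the replicate block, left out each array in turn, and, added after seeing the data, left out the 24 h arrays that stand apart. Equal replicate numbers were checked for pairing. Of 60 pairs of equally numbered arrays 38 correlated above 0.1 and 21 negatively, from -0.53 to 0.73. At 1 h the negative values all involved replicates 1 and 2 of 10 µg/ml TiO2-NB. All other pairs at 1 h had 0.33 to 0.73. At 24 h they lay between a 100 µg/ml group and the control or a 10 µg/ml group. These were replicates 1 and 3, beside -0.06 for replicate 2. So the numbers do not pair the arrays throughout, though groups share a spread. The main fit leaves it in the residuals, so SEs between groups of 1 time can be too large. A fit with arrays matched in another way was not run. The files name no genome build. The promoter windows are from RefSeq (GRCh38.p14).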

Additional observations from a re-analysis of the deposited data

Results flagged for a closer look

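A test of the difference between times called 3 responses of these genes as different at 24 and 1 h. MMP12 had an interaction of -1.73 with 100 µg/ml MWCNT and -1.43 with 100 µg/ml TiO2-NB, and MMP1 had one of -1.05 with 100 µg/ml TiO2-NB, each with limma's adjusted p under 0.05 (0.0387, 0.0394 and 0.0249). The MMP12 call held in 3 of 12 fits without 1 array with MWCNT, and in 4 of 12 with TiO2-NB. The MMP1 call held in 9 of 12. At 1 h MMP12 lay at the low end of the scale, where a fall could hardly be seen. Each group has 3 arrays, too few for a test of single outlying arrays.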

How the results depend on the processing

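The number of the 10 genes called depended on the setting in several comparisons. After median centring it was 2 (in place of 4) for TiO2-NB at 100 µg/ml and 24 h, 2 (in place of 0) between the materials at that dose and time, and 1 (in place of 2) for the interaction with TiO2-NB, while TIMP2 brought MWCNT at 100 µg/ml and 24 h to 4 (in place of 3). Cyclic loess gave 4 for MWCNT and 3 for TiO2-NB in those comparisons with control and 8 (in place of 7) for the control times, again with TIMP2, and the mean of the probe sets gave 6 for the control times. Without the filter on low values, and with a trended and robust prior, it was 1 in place of 2 between the TiO2-NB doses. With only the arrays of the groups compared it was 1 in place of 3 for MWCNT at 100 µg/ml and 24 h, 0 in place of 1 between the MWCNT doses, 0 in place of 1 for the interaction with MWCNT and 1 in place of 2 for that with TiO2-NB. Without the 24 h arrays that stand apart, an alternative chosen after seeing the data, it was 2 between the materials, 2 between the MWCNT doses, 1 between the TiO2-NB doses, 2 for the interaction with MWCNT and 1 for that with TiO2-NB. Leaving out 1 array at a time gave 1 to 3 for MWCNT and 2 to 3 for TiO2-NB at 100 µg/ml and 24 h, 0 to 2 between the materials, 0 to 2 between the MWCNT doses, 0 to 1 between the TiO2-NB doses, 6 to 7 for the control times, and 0 to 1 and 0 to 2 for the interactions with MWCNT and TiO2-NB. The causes were not tested. The replicate block left these counts as they were (3 for MWCNT, 4 for TiO2-NB and 7 for the control times). Replicate numbers do not pair the arrays throughout, so this block cannot remove all that arrays of different groups share. No estimate that was called changed its sign under any setting run. The calls of MMP12 and MMP1 with TiO2-NB at 100 µg/ml held under every setting run.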
